A study of Mus musculus with 4 samples.

Results

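The clustered protocadherin locus is a stretch of chromosome 18 that holds the Pcdha, Pcdhb and Pcdhg gene clusters, taken here as 36.9 to 37.85 Mb on build mm10. Its DNA methylation was described from the CpGs in that stretch that had 10 or more reads in each library, both strands summed. There were 1115 such CpGs among 1600691 that passed the same read minimum across the genome. Of the 1115, 199 lay in Pcdha, 191 in Pcdhb, 632 in Pcdhg and 93 between or beside the clusters. Liver DNA of C57BL6/N mice aged 6 weeks had been cut with restriction enzymes that favour CpG-rich fragments, converted with bisulfite and sequenced (reduced representation bisulfite sequencing). There were 2 libraries from Pnpla7-/- livers (KO) and 2 from Pnpla7+/+ livers (WT). Pnpla7 encodes a lysophospholipase, and the question is whether its loss comes with other methylation in liver. The labels describe neither the Pnpla7 allele nor the number of animals behind each pair of libraries. No p-value here can therefore be read as speaking of animals, and the spread between libraries may be technical. Fisher's exact test, used below on pooled reads, does not measure even that spread. The quasi-binomial model used below takes its error partly from other windows, tiles or CpGs of the genome.

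Clustered protocadherins are cell adhesion proteins best known from the nervous system, where each neuron transcribes its own small set of them and the combination marks the cell. In Pcdha and Pcdhg, each variable exon has its own promoter and encodes the extracellular part, the membrane-spanning part and a short intracellular stretch, and it is spliced to constant exons shared by the whole cluster. Pcdhb genes are encoded by a single exon each and have no shared constant exons. Promoter choice involves the DNA-binding protein CTCF, cohesin and distal enhancers, and in mouse neurons the methylation of promoters and variable exons, laid down in the embryo by Dnmt3b, accompanies silent genes. The C-type genes at the ends of Pcdha and Pcdhg follow other rules and are transcribed more uniformly in neurons.

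The libraries held 59953688 and 60535892 reads in KO livers, against 50413170 and 59437109 reads in WT livers. Median depth at the 1115 CpGs was 20 and 23 reads in KO livers and 21 and 22 reads in WT livers. A level is the share of reads with a methylated cytosine. A CpG with 5 of 10 reads methylated has a 95% Clopper-Pearson interval of 18.7% to 81.3%. For a CpG with 0 of 10, the approximate upper limit of 3 divided by the number of reads is 30%. These limits cover counting error only, since the reads were amplified. The deletion could not be checked from these files: 113 CpGs were listed in Pnpla7 and drew 1734 and 1749 reads in KO livers, against 1429 and 1732 reads in WT livers, and 0 of the 59 with at least 10 reads in both WT libraries had no read in both KO libraries.

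Coverage was uneven along the locus. Of 2646 CpGs listed in any library, 42.1% reached 10 reads in all 4 libraries, against 45.9% across the genome, and the share was 37.9% in Pcdha, 31.0% in Pcdhb and 52.4% in Pcdhg. The annotation gave 58 genes of the 3 clusters. Each gene was described by the 2.5 kb from its annotated low-coordinate end, where the variable exon or the Pcdhb coding exon starts. All 14 Pcdha genes and all 22 Pcdhg genes end within 2 kb of the end of their cluster, so their low-coordinate ends are their individual starts. These windows held 825 of the 1115 CpGs, and 49 of 58 held at least 3 of them: 8 of 12 alpha genes 1 to 12, 18 of 22 beta genes, 11 of 12 gamma A genes, 7 of 7 gamma B genes and 5 of 5 C-type genes. The 49 windows are described below. Of the rest, Pcdhb10 and Pcdhb21 held 1 CpG each, and Pcdha6, Pcdha7, Pcdha10, Pcdha12, Pcdhb4, Pcdhb8 and Pcdhga6 held none. The protocadherins of a subfamily are close in sequence, and how reads that match several of them were placed is not given in the sources used here.

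The locus had many CpGs at intermediate methylation. Of its 1115 CpGs, 50.5% had a mean level between 20% and 80% over the 4 libraries, 33.2% were below 20% and 16.3% above 80%. Over the other 1599576 CpGs of the genome, 18.6% were intermediate, 45.0% below 20% and 36.4% above 80%. The intermediate share was 67.0% in Pcdhb, 50.0% in Pcdhg and 46.7% in Pcdha, against 27.96% between and beside the clusters. In Pcdhb only 4.71% of CpGs were below 20%. In bulk tissue, partly methylated DNA in every cell and a mixture of methylated and unmethylated cells or alleles cannot be told apart.

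**Figure D1:**
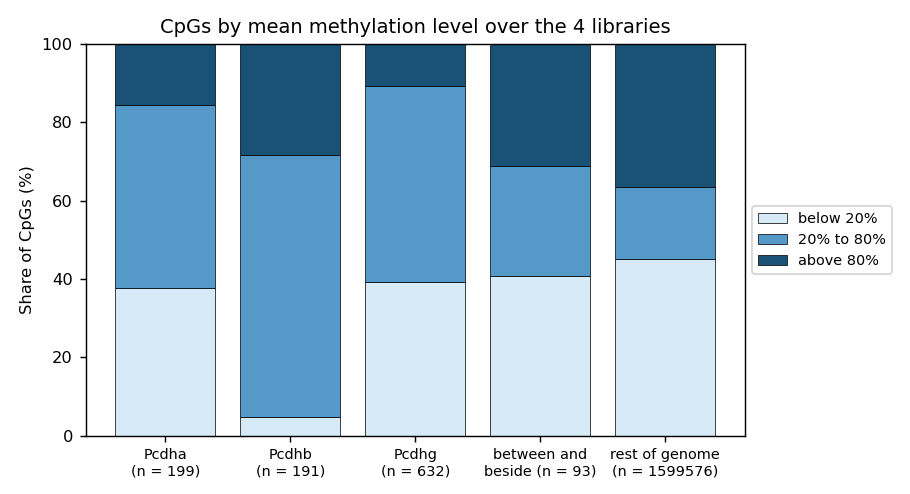
Share of CpGs (%, vertical axis) with a mean methylation level over the 4 libraries below 20%, from 20% to 80% and above 80%, for each cluster, for the CpGs between and beside the clusters, and for the rest of the genome; n is the number of CpGs. The intermediate class takes 67.0% of CpGs in Pcdhb and 18.6% in the rest of the genome.

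Methylation falls with the density of listed CpGs across the genome. The locus was therefore set against the rest of the genome within classes of that density, counted as listed CpGs within 250 bp. A CpG is listed only if it was read in a library, so the count depends on which fragments were sequenced and is not the density of the sequence. Where 20 or more CpGs were listed, the locus was more methylated than the rest. There its 293 CpGs averaged 16.4% and 15.01% in KO livers and 16.03% and 14.9% in WT livers, against 3.74% and 3.65% in KO livers and 3.86% and 3.83% in WT livers over the rest of the genome. The difference was 11.8 ± 0.735 points (SD over 4 libraries). Where fewer CpGs were listed the locus was less methylated, with a difference of -6.26 ± 0.742 points at 10 to 19 listed CpGs, -12.04 ± 0.600 points at 5 to 9 and -10.3 ± 1.63 points at 1 to 4. Each difference had the same sign in 4 of 4 libraries, which gives 0.125 in an exact two-sided sign-flip permutation test, the smallest p that 4 libraries allow.

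The clusters parted in one of these classes. At 10 to 19 listed CpGs, Pcdhb averaged 59.7% and stood 13.2 points above the rest of the genome (12.1 to 14.2 over the libraries), while Pcdha differed from it by -6.47 points (-8.85 to -2.96) and Pcdhg by -11.5 points (-12.97 to -10.6). The excess at 20 or more listed CpGs was carried by Pcdha at 17.1% over 84 CpGs and Pcdhg at 16.1% over 185 CpGs, since only 2 Pcdhb CpGs fell in that class. Intermediate CpGs made up 27.6% of the locus in the densest class, against 2.71% of the rest of the genome, and 59.0% against 19.7% at 10 to 19 listed CpGs.

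**Figure D2:**
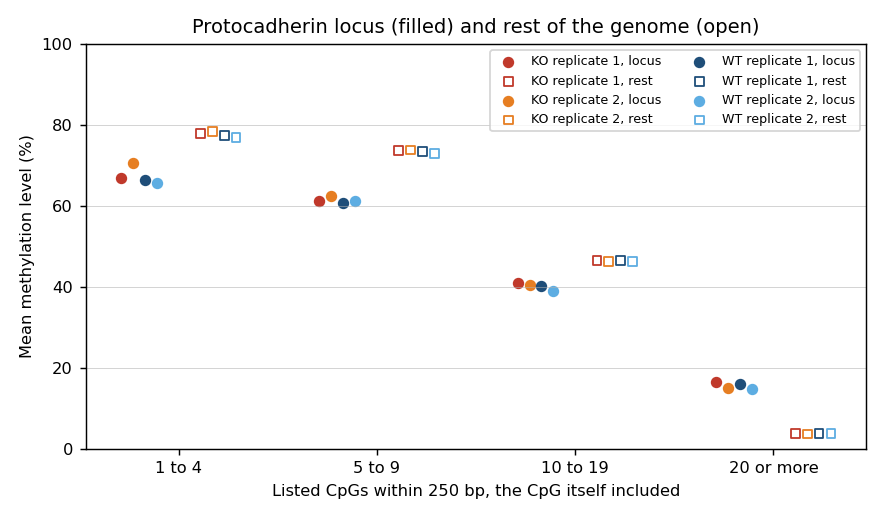
Mean methylation level (%, vertical axis) by the number of listed CpGs within 250 bp (horizontal axis), with 1 point per library, for the protocadherin locus (filled circles) and the rest of the genome (open squares). In the densest class the locus lies at 14.9% to 16.4% and the rest of the genome at 3.65% to 3.86%, and in the other 3 classes the locus lies below the rest.

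The beta and alpha windows were more methylated than the gamma windows. CpGs in beta windows averaged 61.7%, those in windows of alpha genes 1 to 12 averaged 58.4%, and those in gamma A and gamma B windows averaged 37.5%. Beta windows stood 24.2 ± 1.12 points above gamma A and B windows (SD over 4 libraries), and alpha windows 20.9 ± 1.05 points above them. Smaller gaps parted gamma A from gamma B, at -3.03 ± 1.45 points, and beta from alpha, at 3.35 ± 2.08 points (0.886 to 5.43 over the libraries). All 4 differences kept their sign in 4 of 4 libraries (sign-flip permutation p 0.125 each, the smallest possible). The windows differ in the density of listed CpGs as well, with medians per 100 bp of 0.76 in alpha, 0.84 in beta, 1.28 in gamma A and 2.16 in gamma B. They were also read at different places. Of 62 alpha CpGs, 4 lay in the first 500 bp and 38 at 2001 to 2500 bp. Of 143 beta CpGs these were 23 and 7, and of 420 gamma A and B CpGs 127 and 11. Levels change along a window (below), and the part of position in these gaps was not tested. Across the 49 windows, Spearman's rho between density and level ran from -0.62 to -0.55 in the 4 libraries, a description over genes that share libraries and are not independent.

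**Figure D3:**
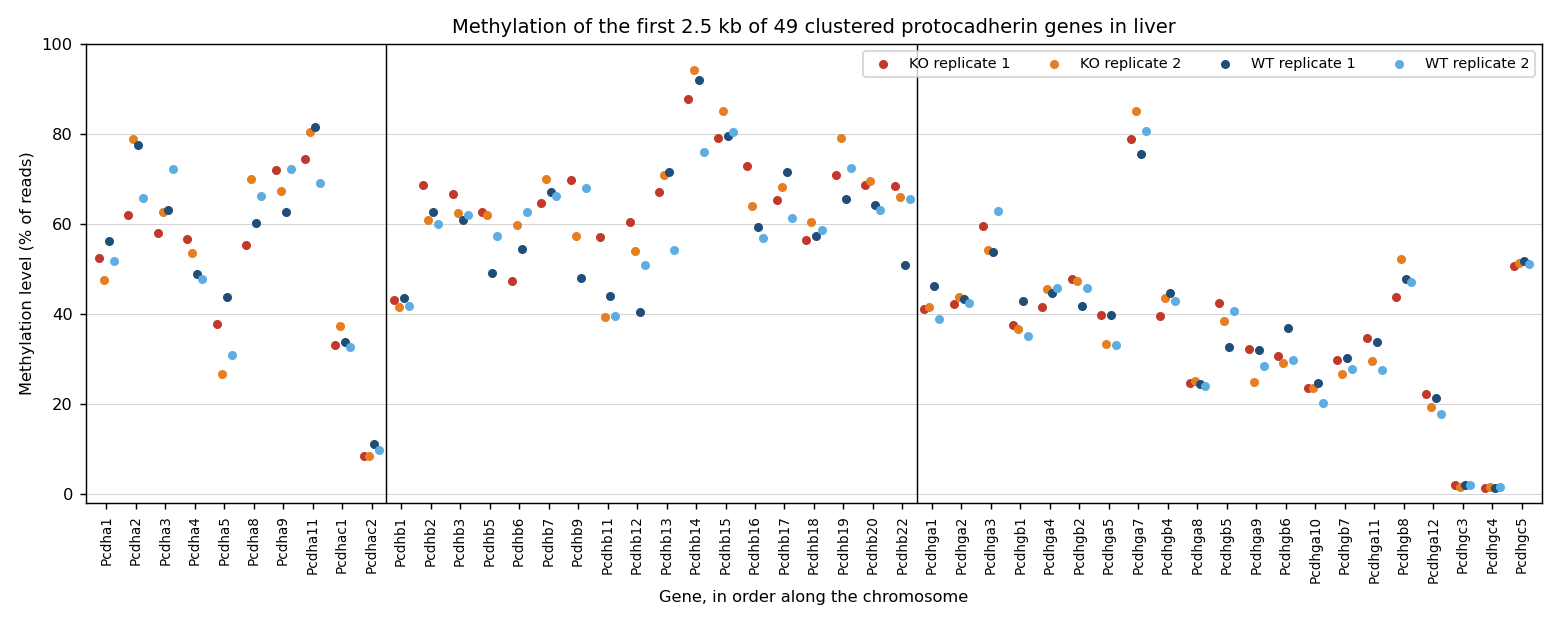
Methylation level (% of reads, vertical axis) of the first 2.5 kb of 49 clustered protocadherin genes in order along the chromosome (horizontal axis), with 1 point per library; vertical lines part Pcdha, Pcdhb and Pcdhg. Pcdhgc3 and Pcdhgc4 lie near 0 and Pcdhac2 near 10 in all 4 libraries. The Pcdhga7 window, read mostly beyond its first 1 kb, stands above the other gamma windows.

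Among the alpha genes 1 to 12, window levels ran from 34.7% at Pcdha5 to 76.4% at Pcdha11, with a median of 63.5%. Pcdha11, among the 5 highest of the 49, had 74.4% and 80.5% in KO livers, against 81.6% and 69.0% in WT livers. Pcdha5 had 37.8% and 26.5% in KO livers, against 43.8% and 30.8% in WT livers. Both rest on few CpGs, 4 and 3, and for both the libraries of a genotype spread as widely as the genotypes. Past the windows of the first genes, 9 CpGs between the Pcdha12 window and the upstream window of Pcdhac1 averaged 78.3% and 92.2% in KO livers, against 79.2% and 77.4% in WT livers.

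Beta windows ran from 42.5% at Pcdhb1 to 87.5% at Pcdhb14, with a median of 63.0%. Pcdhb14 had 87.7% and 94.3% in KO livers, against 92.0% and 76.0% in WT livers. Pcdhb15 had 79.1% and 85.1% in KO livers, against 79.6% and 80.4% in WT livers. Pcdhb19 had 71.0% and 79.0% in KO livers, against 65.5% and 72.5% in WT livers. These 3 were the highest beta windows, and in none of them were the genotypes apart. They rest on few CpGs, 3, 5 and 5 in that order. The beta windows with the most CpGs, Pcdhb2 and Pcdhb17 with 22 each, lay in the middle of the group at 63.0% and 66.6%.

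Gamma A and gamma B genes alternate along Pcdhg, and 17 of their 18 windows lay between 20% and 60%. The other was Pcdhga7, with 78.8% and 85.1% in KO livers, against 75.6% and 80.7% in WT livers, over 15 CpGs. Of these, 13 lay in the tile chr18:37716001-37717000, which starts more than 1 kb into the window. Levels vary along other gamma windows too. In Pcdhga2 the tile chr18:37669001-37670000 averaged 35.9% over the 4 libraries, and the next tile 85.4%. The part of position in the level of Pcdhga7 was not tested. The next gamma window, Pcdhga3, averaged 57.6%. The lowest were Pcdhga12, with 22.1% and 19.4% in KO livers, against 21.3% and 17.7% in WT livers, and Pcdhga10, with 23.5% and 23.6% in KO livers, against 24.7% and 20.1% in WT livers. Pcdhga10 was above Pcdhga12 in 4 of 4 libraries. Levels were lower towards the C-type genes, with Spearman's rho between gene order and level of -0.57 to -0.53 over 18 genes in the 4 libraries, and -0.59 to -0.54 without Pcdhga7. Density did not follow the levels as closely among these 18 genes (rho -0.26 to -0.12). These rhos are descriptions.

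The C-type genes included the 3 lowest windows. Pcdhgc4 was the lowest window of the 49, with 1.22% and 1.499% in KO livers, against 1.20% and 1.55% in WT livers, over 22 CpGs. Pcdhgc3 had 1.92% and 1.54% in KO livers, against 1.99% and 1.90% in WT livers, over 74 CpGs, the most of any window. Pcdhac2 had 8.48% and 8.46% in KO livers, against 10.98% and 9.65% in WT livers, over 57 CpGs. These 3 windows stood apart from the other 46, of which the lowest was Pcdhga12 at 20.1%.

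The neighbours of these genes in the same class were much more methylated. Pcdhgc5, the last gene before the constant exons of Pcdhg, had 50.7% and 51.2% in KO livers, against 51.8% and 51.0% in WT livers. It exceeded Pcdhgc4, the gene before it, by 49.8 ± 0.527 points (SD over 4 libraries). Pcdhac1 had 32.97% and 37.4% in KO livers, against 33.7% and 32.6% in WT livers, and exceeded Pcdhac2 by 24.8 ± 2.89 points. Both differences held in 4 of 4 libraries (sign-flip permutation p 0.125, the smallest possible).

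Methylation also varied along a window. Single CpGs ran from 1.67% to 62.9% in the Pcdhga10 window and from 0% to 78.0% in the Pcdhac2 window, against 0% to 13.9% in the Pcdhgc3 window. Taken in bins of 500 bp from the gene start, gamma A and B CpGs averaged 20.8% in the first bin (127 CpGs), 38.0% in the second, 53.6% in the third (108 CpGs) and 40.5% in the fourth (69 CpGs). In 12 of the 12 gamma A and B genes with enough CpGs in both, the bin from 1001 to 1500 bp was higher than the first 500 bp. The first bin of these 12 averaged 19.8% and 18.2% in KO livers and 19.1% and 18.7% in WT livers, and the third bin 58.9% and 61.7% in KO livers and 56.8% and 57.8% in WT livers. From the third to the fourth bin the level was higher in 1 of 7 genes. Beta CpGs averaged more, at 41.7% in the first bin (23 CpGs of 7 genes) and 73.4% in the third (33 CpGs of 9 genes). Only 2 beta genes, Pcdhb1 and Pcdhb2, had enough CpGs in both bins, and 2 of 2 were higher in the third.

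Genes elsewhere were less methylated over the first 2 kb. For genes on other chromosomes whose start and strand RefSeq's promoter windows give (build GRCm38.p6), the mean level was 3.57% in the first 500 bp (13604 genes), 8.20% in the second bin, 21.3% in the third and 35.4% in the fourth. Gamma A and B windows exceeded these by 17.3 ± 0.583 points in the first bin, 32.3 ± 2.35 in the third and 5.09 ± 0.189 in the fourth (SD over 4 libraries). Beta windows exceeded them by 38.1 ± 2.43, 52.0 ± 2.72 and 25.9 ± 1.18 points in the same bins. All 6 differences had 1 sign in 4 of 4 libraries (sign-flip permutation p 0.125, the smallest possible). From 2001 to 2500 bp, gamma A and B windows differed by 2.15 ± 2.01 points (-0.556 to 3.74 over the libraries, sign-flip permutation p 0.25) and beta windows by 19.6 ± 4.18 points, over 11 and 7 CpGs. CpG density was not matched here.

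Among C-type genes the course differed from gene to gene. Pcdhac2 averaged 1.02% in its first 500 bp (29 CpGs), 3.796% in the second bin, 28.1% in the third (11 CpGs) and 72.0% in the fourth (2 CpGs). Pcdhgc3 stayed between 0.600% and 3.82% through all 4 bins it was measured in, and Pcdhgc4 at 1.55% and 1.44% in its 2 bins. Pcdhgc5 was at 50.3% in its first bin and 83.7% in its second, with 4 CpGs in each.

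**Figure D4:**
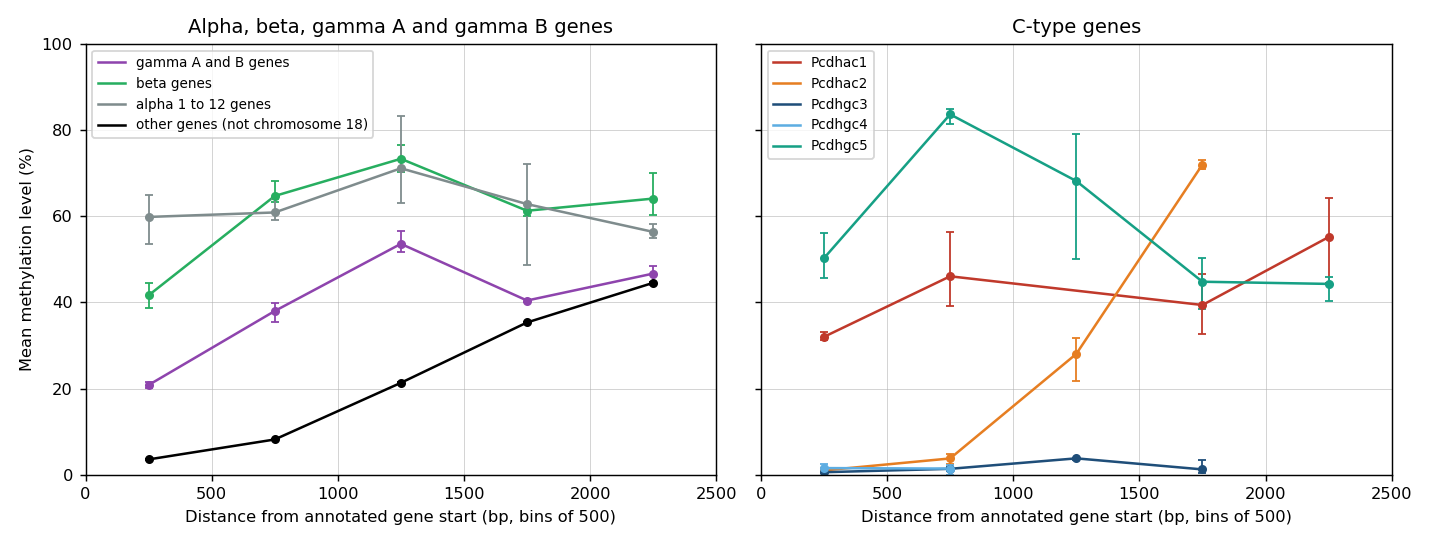
Mean methylation level (%, vertical axis) in bins of 500 bp from the annotated gene start (horizontal axis, bp); points are means of the 4 libraries and bars span the lowest to the highest library. Gamma A and B genes climb from 20.8% to 53.6% by the third bin, other genes lie at 3.57% to 21.3% over the same bins, and Pcdhgc3 and Pcdhgc4 stay below 4%. Bins with fewer than 20 CpGs (most alpha and C-type bins) are thin, and Pcdhac1 has no CpG from 1001 to 1500 bp.

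The 1 kb before the gene start held at least 3 CpGs for 7 genes. It was nearly free of methylation before Pcdhgc3, with 0.313% and 1.13% in KO livers, against 1.12% and 1.31% in WT livers. Before Pcdhac1 it was at 9.36% and 9.71% in KO livers, against 8.13% and 3.33% in WT livers, and before Pcdhga11 at 11.4% and 7.94% in KO livers, against 6.74% and 5.14% in WT livers. Before Pcdhb2 it was at 5.17% and 6.12% in KO livers, against 8.70% and 10.8% in WT livers. In Pcdhac1, Pcdhga11 and Pcdhb2 the upstream window was thus below the gene's own window in 4 of 4 libraries (differences of -63.4 to -21.5 points). The other 3 were more methylated.

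Those 3 were Pcdhb5, Pcdhb13 and Pcdhga10. Upstream of Pcdhb5 the level was 61.0% and 58.2% in KO livers, against 61.0% and 60.9% in WT livers, and upstream of Pcdhb13 it was 68.3% and 70.3% in KO livers, against 57.8% and 60% in WT livers. Upstream of Pcdhga10 it was 57.1% and 46.3% in KO livers, against 47.3% and 54.5% in WT livers, which is 22.6 to 34.4 points above the gene's own window in each library. Pcdhga10 thus ran opposite to Pcdhga11, its neighbour but one.

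Other DNA in the stretch gave reference points. The high-coordinate end of Taf7, a subunit gene of a general transcription factor that lies between Pcdhb and Pcdhg, was at 0.371% and 0.182% in KO livers, against 0.577% and 0.350% in WT livers. The 2 CpGs in Slc25a2, a mitochondrial carrier gene beside it, averaged 96.4% and 96.9% in KO livers, against 96.9% and 88.6% in WT livers. The 20 CpGs after the Pcdhac2 window, which lead to the constant exons of Pcdha, averaged 72.2% and 75.4% in KO livers, against 70.5% and 66.9% in WT livers. The 32 CpGs after the Pcdhgc5 window averaged 51.3% and 51.2% in KO livers, against 50.0% and 45.6% in WT livers.

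Between genotypes the locus differed little. Its mean level was 41.7% and 41.9% in KO livers, against 41.2% and 40.4% in WT livers, a difference of 0.988 points. Pcdhb differed most among the clusters, with 64.4% and 64.4% in KO livers, against 61.9% and 61.5% in WT livers (64.4 ± 0.0126% and 61.7 ± 0.335%, SD, n = 2 each), 2.67 points higher in KO livers. Pcdha had 40.4% and 41.3% in KO livers, against 40.2% and 39.1% in WT livers. Pcdhg had 35.2% and 34.9% in KO livers, against 34.6% and 33.5% in WT livers. The CpGs between and beside the clusters went the other way, with 42.9% and 43.8% in KO livers, against 45.4% and 46.9% in WT livers.

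In each of these 5 sets the KO and WT libraries did not overlap, and the exact two-sided permutation test gave p = 0.333, the smallest that 2 libraries against 2 allow, so the design cannot pass 0.05. The locus set holds the others, so the 5 are not separate results. The rest of the genome averaged 45.1% and 45.2% in KO livers, against 44.9% and 44.7% in WT livers, 0.336 points higher in KO livers. Its KO and WT libraries did not overlap either, so this is not particular to the locus. At 1 to 4, 5 to 9 and 10 to 19 listed CpGs within 250 bp, Pcdhb was 6.57, 2.12 and 1.30 points higher in KO livers, and the rest of the genome 0.991, 0.607 and 0.0326 points higher. Pcdha was 6.42 points higher in KO livers at 1 to 4 listed CpGs (24 CpGs), while Pcdhg differed by -1.61 points there (29 CpGs). When CpGs were weighted by their reads, the KO minus WT difference was -0.229 points for the locus and -0.294 for Pcdhg, while Pcdhb stayed 3.002 points higher. At 20 or more reads in every library, the difference of Pcdha was -1.36 points over 39 CpGs. Without WT replicate 2 the locus difference was 0.591 points, that of Pcdha 0.608 and that of Pcdhg 0.408; without KO replicate 2 Pcdha gave 0.677, and without WT replicate 1 Pcdhg gave 1.55.

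Gene by gene, none of the 49 windows was called. A call needed an adjusted p under 0.05 in a moderated quasi-binomial model fitted to the windows of all genes, with Benjamini-Hochberg adjustment, and a difference of at least 10 points. This called 0 of 49 windows, against 0.0464% of 15085 windows at the same end of all genes. At an unadjusted p under 0.05 it was also 0 of 49 by this model (5.79% of all windows). At that level limma on log2 ratios gave 0 and Fisher's exact test on pooled reads 8. The shares of these 2 tests over all windows are not given here. By the same rule for a call, Fisher's exact test called 0 of the 49, against 120 windows across the genome. Of the 49 windows, 30 were higher and 19 lower in KO livers, with a median of 0.576 points, against 0.0313 over all other windows and 0.187 over those at 20% to 80%. Both KO libraries lay above both WT libraries in 9 of 49 windows (18% of all windows) and below them in 2 of 49 (16.6% of all windows).

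The 5 largest differences towards higher methylation in KO livers were all in beta genes, and none passed the test. Pcdhb12 had 60.5% and 54.1% in KO livers, against 40.4% and 50.9% in WT livers, 11.6 ± 6.27 points higher (SE; adjusted p = 0.929 in the quasi-binomial model). Pcdhb16 had 72.9% and 63.9% in KO livers, against 59.4% and 57.0% in WT livers, 10.2 ± 4.88 points higher; its unadjusted p of 0.0503 was the lowest of the 49 (adjusted p = 0.865 in the same model). In both, the genotypes did not overlap. Pcdhb5 differed by 9.10 points, Pcdhb22 by 8.99 and Pcdhb14 by 7.003, and Pcdhb14 overlapped. Single libraries carried much of these sizes: without WT replicate 1, Pcdhb12 differed by 6.35 points, Pcdhb5 by 4.996 and Pcdhb22 by 1.72, without WT replicate 2 Pcdhb22 differed by 16.3, and without KO replicate 1 Pcdhb16 differed by 5.69. With a minimum of 5 reads Pcdhb5 differed by 4.06 points and Pcdhb22 by 3.09. Of the 18 beta windows, 16 were higher in KO livers, with a median of 5.50 points, against 7759 of 15036 other windows and 1799 of the 3488 at 20% to 80%; Pcdhb1 and Pcdhb6 were lower. The median SE of a beta window was 5.47 points at a median of 113 reads per library, and 4 of 18 had a 95% interval within 10 points either way.

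The 5 largest differences the other way were spread over the clusters, and none passed the test. Pcdha3 had 58.0% and 62.7% in KO livers, against 63.2% and 72.2% in WT livers, a difference of -7.33 ± 3.83 points (SE; adjusted p = 0.944 in the quasi-binomial model), with no overlap. Pcdhb6 differed by -5.11 points, Pcdha5 by -5.11, Pcdha1 by -3.96 and Pcdhgb6 by -3.45, and in these 4 the libraries of the genotypes overlapped. The differences of Pcdhb6, Pcdha5, Pcdhgb6 and, among the beta genes above, Pcdhb14 changed sign when 1 library was left out. Pcdha3 differed by -2.81 points without WT replicate 2 and by -11.8 without WT replicate 1. Pcdha1 differed by -1.52 points without KO replicate 2 and -1.70 without WT replicate 1, and by -6.40 without KO replicate 1 and -6.22 without WT replicate 2.

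The C-type and gamma windows had narrower model intervals. Pcdhgc4 differed by -0.0147 points (95% interval -1.17 to 1.145), Pcdhgc3 by -0.219 (-0.985 to 0.547) and Pcdhac2 by -1.84 (-4.04 to 0.351). Pcdhac1 differed by 2.04 points (-3.22 to 7.30) and Pcdhgc5 by -0.475 (-6.26 to 5.31). All 11 gamma A and all 7 gamma B windows had a 95% model interval within 10 points either way. The model draws each window's dispersion towards a genome-wide prior of 1.57. From their own libraries the median dispersion was 3.33 in gamma A and 2.57 in gamma B, against 1.08 over all other windows. For windows above the prior the interval is thus narrower than their own libraries give, so it does not exclude a difference of 10 points on that spread.

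**Figure D5:**
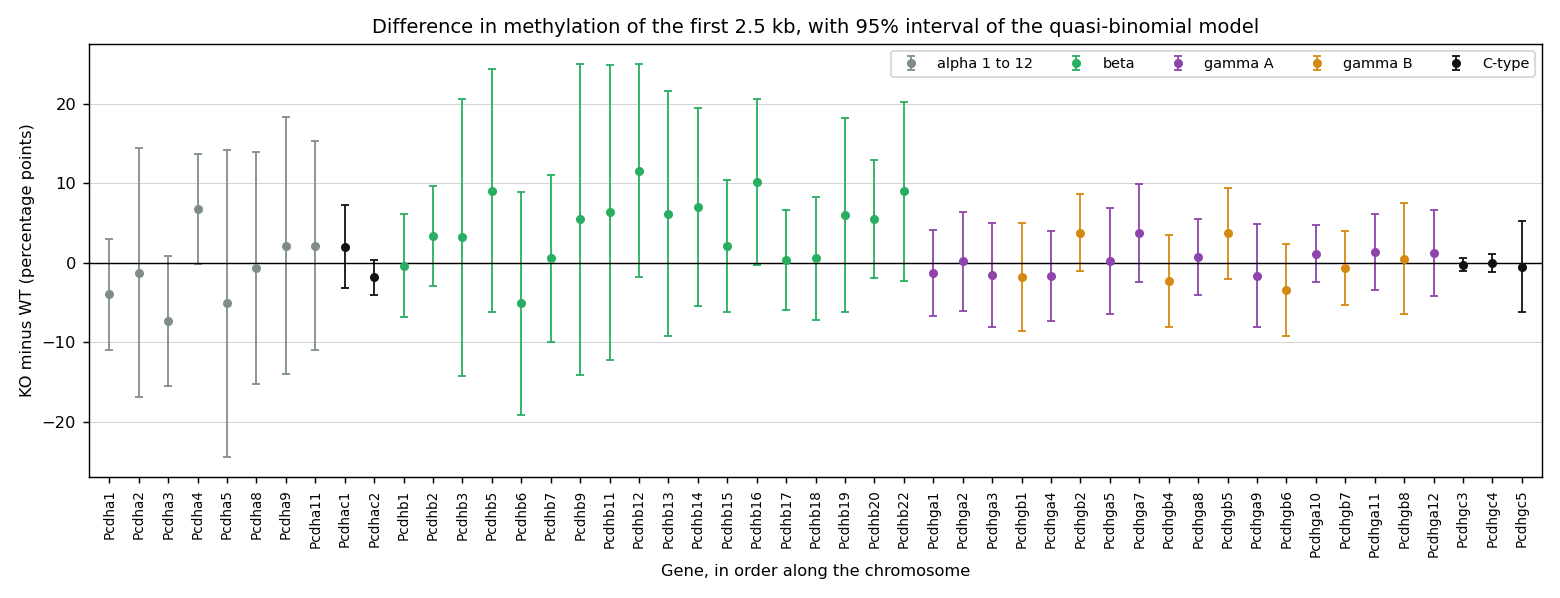
KO minus WT methylation (percentage points, vertical axis) of the first 2.5 kb of 49 clustered protocadherin genes in order along the chromosome (horizontal axis); points are differences of genotype means and bars 95% intervals of the quasi-binomial model, coloured by gene group. Beta genes lie mostly above 0 with wide intervals, and the gamma and C-type intervals are narrow and include 0.

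Of the 7 upstream windows, 0 were called, against 0.147% of 8150 such windows of all genes. The lowest p was at Pcdhga11, 3.74 ± 1.75 points higher in KO livers (SE; unadjusted p = 0.0281, adjusted p = 0.711 in the quasi-binomial model), the 1 window of 7 with an unadjusted p under 0.05 (6.33% of all such windows); limma found 0 and Fisher's exact test 2 at that level. The share of 6.33% is that of the quasi-binomial model, not of limma or Fisher's exact test. Without KO replicate 1 the upstream window of Pcdhga11 differed by 1.998 points. Pcdhb13 differed most, by 10.4 points, with an interval of -3.49 to 24.3, but by 3.20 points with a minimum of 5 reads, where Pcdhga10 differed by -6.30.

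Nor were tiles or single CpGs called. The same model called 0 of 112 tiles of 1 kb in the locus, against 0.0788% of 163610 across the genome, with 6 at an unadjusted p under 0.05 (1 by limma, 13 by Fisher's exact test), against 5.78% of all tiles. At single CpGs it called 0 of 1041 tested, against 0.00807% of 1263975, with 39 at an unadjusted p under 0.05 (40 by limma, 43 by Fisher's exact test), which is 3.75% against 4.01% across the genome. Tiles with both KO libraries above both WT libraries numbered 21 of 112 (19.5% of all tiles) and those below 10 of 112 (14.9% of all tiles). For CpGs the counts were 177 above (14.6% of all CpGs) and 125 below (12.7% of all CpGs). The genome-wide shares at an unadjusted p under 0.05 are those of the quasi-binomial model, not of limma or Fisher's exact test.

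The tiles with the largest differences towards higher methylation in KO livers were chr18:36953001-36954000 in the Pcdha4 window, 57.7% and 67.2% in KO livers, against 46.6% and 50.4% in WT livers (13.97 points, and 9.21 without KO replicate 2), followed by chr18:37023001-37024000 and chr18:37436001-37437000. The last of these holds the same 4 CpGs as the Pcdhb12 window. The largest the other way were chr18:37543001-37544000, chr18:37842001-37843000 and chr18:37544001-37545000. The tile at 37842001, just past the end of Pcdhg, had 66.6% and 69.4% in KO livers, against 75.8% and 78.9% in WT livers, over 13 CpGs. The difference was -9.35 ± 2.72 points (SE), with the lowest p of the locus tiles, 0.00297, and an adjusted p of 0.458 in the quasi-binomial model.

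Among CpGs no shallower than 20 reads in any library, the largest difference towards lower methylation in KO livers was at position 37685953, 716 bp into Pcdhga4, with 29.2% and 36.0% in KO livers, against 50.0% and 69.6% in WT livers (-27.2 points, and -17.4 without WT replicate 2). A second Pcdhga4 CpG, at 37685768, had 13.8% and 29.2% in KO livers, against 42.9% and 45.5% in WT livers (-22.7 points, and -14.99 without KO replicate 1), although the whole Pcdhga4 window differed by only -1.67 points. The largest towards higher methylation was at 37762993 in Pcdhgb8, with 62.1% and 59.0% in KO livers, against 37.5% and 31.4% in WT livers. The other CpGs of the 5 largest each way lay past Pcdhg and in Pcdhac1 and Pcdhac2 where KO livers were lower, and in Pcdhga5, Pcdhgb5, Pcdhb12 and Pcdhb18 where they were higher. All 10 had an adjusted p of 0.782 in the quasi-binomial model.

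Genes that act on the clusters were looked at in 2-kb windows centred on whichever end of the gene listed more CpGs. Of 16 regulators (CTCF, cohesin and its loader and release factor, DNA methyltransferases and the silencing factors that work with them), 11 had a window, and all 11 were below 20% methylation, as were 14391 of 20911 windows of all genes. Of the 11, 0 were called, against 0.0192% of 20846 windows of all genes. Their median difference was 0.0181 points, against 0.0153 over all windows. Smc1a, a cohesin subunit gene on the X chromosome, had 15.95% and 12.4% in KO livers, against 22.7% and 18.3% in WT livers (unadjusted p = 0.00772, adjusted p = 0.585 in the quasi-binomial model). Wapl, which encodes the cohesin release factor, had 23.1% and 27.3% in KO livers, against 12.5% and 12.9% in WT livers over 4 CpGs (unadjusted p = 0.0133, adjusted p = 0.687 in the same model). Setdb1, a histone methyltransferase gene, had 6.54% and 8.24% in KO livers, against 11.1% and 9.64% in WT livers, and Hells, a chromatin remodeller gene, 2.44% and 3.52% in KO livers, against 5.24% and 3.44% in WT livers.

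Of 12 protocadherin genes outside the clusters, 10 had such a window, with a median level of 2.64%, and 8 were below 20%. Over all genes the median was 3.03% and 14391 of 20911 windows were below 20%, and these windows sit at the CpG-richer gene end, so they are not matched to the 2.5-kb windows of the clusters. The quasi-binomial model called 0, and the lowest unadjusted p of the 10 was 0.0944, at Pcdh12. The 2 above 20% were Pcdh12 and Pcdh19. Pcdh12 had 56.05% and 64.2% in KO livers, against 74.1% and 63.6% in WT livers. Pcdh19, which like Smc1a lies on the X chromosome, had 22.8% and 27.2% in KO livers, against 27.2% and 31.0% in WT livers. The other members with the smallest p were Pcdh20, with 0.899% and 0.862% in KO livers, against 0% and 0.464% in WT livers, and Pcdh10, with 1.14% and 4.601% in KO livers, against 2.63% and 1.47% in WT livers.

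Cell type marker genes gave no clear check of the tissue. Windows of 3 of 6 hepatocyte marker genes were below 20%, and 0 of 5 leukocyte and Kupffer marker genes were (median 79.9%), against 14391 of 20911 windows of all genes. Windows of 4 of 5 neuron marker genes, 3 of 4 stellate cell, 3 of 4 cholangiocyte and 1 of 1 endothelial marker genes were below 20%. The quasi-binomial model called none of them between genotypes. The lowest p was at the hepatocyte gene Tat, with 66.2% and 62.0% in KO livers, against 41.4% and 48.4% in WT livers (adjusted p = 0.249 in the quasi-binomial model). Cyp2e1, also a hepatocyte gene, went the other way, with 34.6% and 25.6% in KO livers, against 48.0% and 46.5% in WT livers (adjusted p = 0.527 in the same model). The part of cell composition in the values of the locus was not tested.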

How the data were processed

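Reduced representation bisulfite libraries of liver DNA, cut with TaqI and MspI per the labels' protocols, were analysed as 2 KO and 2 WT libraries. Per the file headers, the authors deposited for each library methylation levels (a fraction, negative for cytosines of the reverse strand) and read depths (a count, signed alike), made with GBSA on mm10. The submitters' processing notes also list BWA 0.7.12 and MACS; what each did, and any filter, is not given in the sources used here. Level times depth gave whole methylated reads at 100% of positions.

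Strands were summed and CpGs of 10 or more reads in each library kept. The 198 locus CpGs just inside this minimum (lowest depth 10 or 11 reads) averaged 45.2% and 45.9% in KO livers and 44.1% and 45.6% in WT livers; the 158 just outside (8 or 9 reads) averaged 49.2% and 47.3% in KO livers and 46.6% and 47.6% in WT livers. Levels of clusters and bins are means over CpGs, those of windows and tiles are summed methylated reads over summed reads, with at least 3 CpGs. Gene positions came from RefSeq (GRCm38.p6), which gave no strand for these genes.

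Tests across features used a moderated quasi-binomial model, its dispersion prior estimated with limma 3.58.1 in R 4.3.3 from features whose binomial variance reached 5 reads per library. The dispersion was 1 or more, F tests were quasi-likelihood ones, and p-values were adjusted (Benjamini-Hochberg) over the whole genome; the model was tested on simulated data. Tables and plots were made with pandas 2.3.3 and matplotlib 3.10.9 in Python 3.11.15. The genes named are the 5 highest and 5 lowest windows, the C-type genes, the 5 largest rises and falls, the upstream windows, Taf7 and Slc25a2, the 3 tiles and 5 CpGs of largest difference each way, and up to 4 members of each regulator and unclustered list by smallest p; others named were chosen after their values were seen, as were the bins along windows and the comparison with genes elsewhere. The locus, its members and the gene lists were chosen with earlier results of these data known.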

Additional observations from a re-analysis of the deposited data

How the results depend on the processing

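The count of calls in the locus stayed at 0 for CpGs, tiles, gene windows and upstream windows under these alternative runs. The runs were read minimums of 5 and 20, no minimum difference or 20 points, CpGs over 200 reads left out, and another prior. Limma, Fisher's exact test, 500-bp tiles and 1.5-kb windows were also run. Across the whole genome, limma called 0 tiles, 0 gene windows and 0 upstream windows, and the 20-point minimum left 0 gene windows. In those runs the 0 of the locus therefore carries no information about it. Calls were rare in the main runs as well, at 0.0464% of gene windows, 0.0788% of tiles, 0.00807% of CpGs and 0.147% of upstream windows. At such shares 0 is the likely count for sets as small as those of the locus. Its 0 therefore says little about whether the locus differs between genotypes. Weighted by reads, KO minus WT was -0.229 points for the locus, -0.294 for Pcdhg and 3.002 for Pcdhb. At 5 reads Pcdhb gave 3.18, and at 20 reads Pcdhb gave 2.10 and Pcdha -1.36. Leaving out 1 library at a time gave 0.591 to 1.39 for the locus, 0.608 to 1.71 for Pcdha, 2.43 to 2.90 for Pcdhb and 0.408 to 1.55 for Pcdhg. Locus minus the rest of the genome, from the sparsest to the densest class, was -12.0, -14.2, -8.70 and 13.1 points at 5 reads and -5.57, -15.1, -2.88 and 9.10 at 20 reads; leaving out 1 library gave -11.1 to -10.01, -12.3 to -11.9, -6.46 to -5.91 and 11.5 to 12.1. The causes were not tested. Named windows that changed sign were Pcdhb6 (-11.3 to 1.08 over libraries left out), Pcdha5 (-11.6 to 1.38), Pcdhb14 (-0.997 to 15.002), Pcdhgb6 (-6.91 to 0.0118, and 5.62 in 1.5-kb windows), and, upstream, Pcdhb5 (-2.75 to 0.0213, and 0.117 at 5 reads) and Pcdhga10 (-4.65 to 6.24, and -6.30 at 5 reads). Of these, Pcdha5 gave 0.518 without KO replicate 2, and upstream Pcdhga10 -2.85 without WT replicate 1. The replicate numbers share only a number: deviations of same-numbered libraries correlated at -0.0102 over 45320 intermediate tiles. With the replicate block the locus difference was 0.988 points, Pcdha 1.16, Pcdhb 2.67 and Pcdhg 0.978, and calls in the locus were 0. Depth limits single CpGs, and the windows of alpha genes 1 to 12 (median SE 6.47 points) and beta genes (5.47) more than those of gamma genes.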

Other observations

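The 9 gene windows with fewer than 3 CpGs at 10 reads can be described only from all listed CpGs, at lower depth. In the Pcdhb21 window, the 22 listed CpGs gave 45.4% and 36.0% in KO livers, against 30.0% and 32.8% in WT livers, over 150 to 203 reads per library. In the Pcdhb10 window, 20 listed CpGs gave 74.8% and 64.5% in KO livers, against 65.1% and 63.6% in WT livers. In the Pcdha12 window, 26 listed CpGs gave 27.5% and 43.9% in KO livers, against 38.1% and 43.8% in WT livers. In the Pcdha7 window, 17 listed CpGs gave 54.8% and 61.1% in KO livers, against 74.5% and 64.1% in WT livers. In the Pcdhb8 window, 15 listed CpGs gave 63.2% and 78.3% in KO livers, against 64.7% and 66.7% in WT livers. In the Pcdhga6 window, 7 listed CpGs gave 45.6% and 32.3% in KO livers, against 35.7% and 26.4% in WT livers. The Pcdha10 and Pcdhb4 windows had under 50 reads in each library, and the Pcdha6 window listed 0 CpGs. No test was run on these values.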
